A study of Mus musculus with 6 samples.

Results

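The Notch pathway was described by 10 genes chosen by name: the receptors *Notch1*, *Notch2*, *Notch3* and *Notch4*, the ligands *Jag1*, *Jag2*, *Dll1* and *Dll4*, and the target genes *Hes1* and *Hey1*. Of these 10, 9 carried their own name in each of the 6 expression tables, among 48733 named genes in all, and *Notch2* did not. RNA was sequenced from femoral bone with the marrow spun out (3 libraries labelled bone) and from osteoblasts grown from marrow stromal cells (3 libraries labelled osteoblasts). The cultures were differentiated in medium holding ascorbic acid, beta-glycerophosphate and dexamethasone. All mice were of CC016/GeniUnc, an inbred Collaborative Cross strain, the only genotype the labels give, and their age is not given in the sources used here. Each group held 3 biological replicates. The study's methods give 3 mice as the source of the femora and describe the marrow cultures next, so both groups may come from the same animals, but the labels tie no bone library to a culture. The comparison by label therefore took no account of shared mice. Levels are FPKM, fragment numbers divided by transcript length and by the size of the library, which allow genes of different length to be compared within a library.

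Notch signalling passes between touching cells. A Delta-like or Jagged ligand on one cell binds a Notch receptor on its neighbour, metalloproteases and then gamma-secretase cut the receptor, and the freed intracellular domain joins RBPJ and Mastermind proteins on DNA to switch on repressors of the HES and HEY families. In the skeleton the pathway is known for holding mesenchymal progenitors back from osteoblast differentiation, and in the marrow and its vessels for guiding endothelial and blood cell fates.

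The libraries did not sort by their labels on blood genes. The hemoglobin gene *Hbb-bt* stood above 1000 FPKM in 3 libraries, bone replicate 3 (34838 FPKM), osteoblasts replicate 2 (34268 FPKM) and osteoblasts replicate 3 (48650 FPKM), and at 7.05 FPKM or less in bone replicates 1 and 2 and osteoblasts replicate 1. The *Hbb-bt* feature also spans *Hbb-bs*, so it stands for the adult beta-globin locus. The first set is called the hemoglobin-high libraries below and the second the hemoglobin-low libraries. These are sets of libraries read from one measured locus and not groups of the study, so values are given library by library and no test was run between them. Both labels held libraries of both sets. Bone replicates 1 and 2 lay with osteoblasts replicate 1 on these genes, and osteoblasts replicates 2 and 3 with bone replicate 3. Whether labels were exchanged between libraries was not tested. The labels were kept as deposited, and every mean and difference by label rests on them. Aligned depth, read from the ratio of coverage to FPKM for pairs of 75-base reads, came to 13566667 to 22586667 read pairs per library, so that 3 pairs on a 1 kb transcript give 0.133 to 0.221 FPKM, a floor that covers counting error only. Features without a gene name took 71.5% of the summed FPKM in bone replicate 2 and 65.0% in osteoblasts replicate 1, against 27.4 to 30.7% in the other 4. The 75th percentile of FPKM over the 12112 named genes with a mean of at least 1 FPKM was 8.80 and 11.3 in those 2 libraries and 15.2 to 17.5 in the other 4.

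Other cell type markers moved with hemoglobin. Of the 12112 named genes with a mean of at least 1 FPKM, 38.4% were higher in every hemoglobin-high library and 16.9% were lower. All 8 endothelial markers (*Pecam1*, *Cdh5*, *Kdr*, *Tek*, *Tie1*, *Emcn*, *Egfl7* and *Vwf*) were higher in each hemoglobin-high library than in any other, with summed levels of 143 to 149 FPKM against 3.05 to 12.1 FPKM, and only *Tek* was listed at 0 in any library (bone replicate 2). Of the erythroid list of 7, 4 carried a name, and its sum is not set beside the others because *Hbb-bt*, which defined the sets, makes up most of it. The erythroid gene *Alas2*, the first enzyme of heme synthesis in red cells, was at 732 to 910 FPKM against 0.0540 to 0.208 FPKM. The 7 neutrophil markers summed to 14246 to 17225 FPKM against 0.430 to 5.51 FPKM, and the 5 B cell markers to 102 to 115 FPKM against at most 0.264 FPKM. The defining markers *Elane* (neutrophil) and *Cd79a* (B cell) were listed at 0 in all 3 hemoglobin-low libraries. Of the 4 skeletal muscle markers 3 carried a name, and they summed to 221 to 943 FPKM against at most 1.09 FPKM. The 5 macrophage markers ran the other way, at 303 to 394 FPKM in the hemoglobin-high libraries and 1037 to 2035 FPKM in the others, and so did the 6 named markers of the pericyte and smooth muscle list, at 31.2 to 45.4 against 201 to 522 FPKM. In that list the order came from *Acta2*, *Tagln* and *Cnn1*, whose ranges did not overlap, while *Cspg4*, *Rgs5* and *Mcam* overlapped. The 6 named osteoblast markers summed to 3151 to 5043 FPKM in the 6 libraries, with *Bglap2* higher and *Alpl* and *Ibsp* lower in each hemoglobin-high library. The osteocyte gene *Sost* was at 15.8 to 22.7 FPKM in the hemoglobin-high libraries and at 0.198 FPKM or less in the others, bone replicates 1 and 2 among them. *Dmp1*, also of osteocytes, lay the other way, at 22.5 to 24.2 against 50.0 to 127 FPKM, and the 5 named osteocyte markers summed to 48.2 to 53.5 against 57.1 to 135 FPKM. The order of that sum came from *Dmp1*, while *Phex*, *Pdpn* and *Fgf23* overlapped by FPKM. The part of these cell types in the Notch values below was not tested, and in bulk RNA fewer cells of a type and less RNA per cell cannot be told apart.

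**Figure D1:**
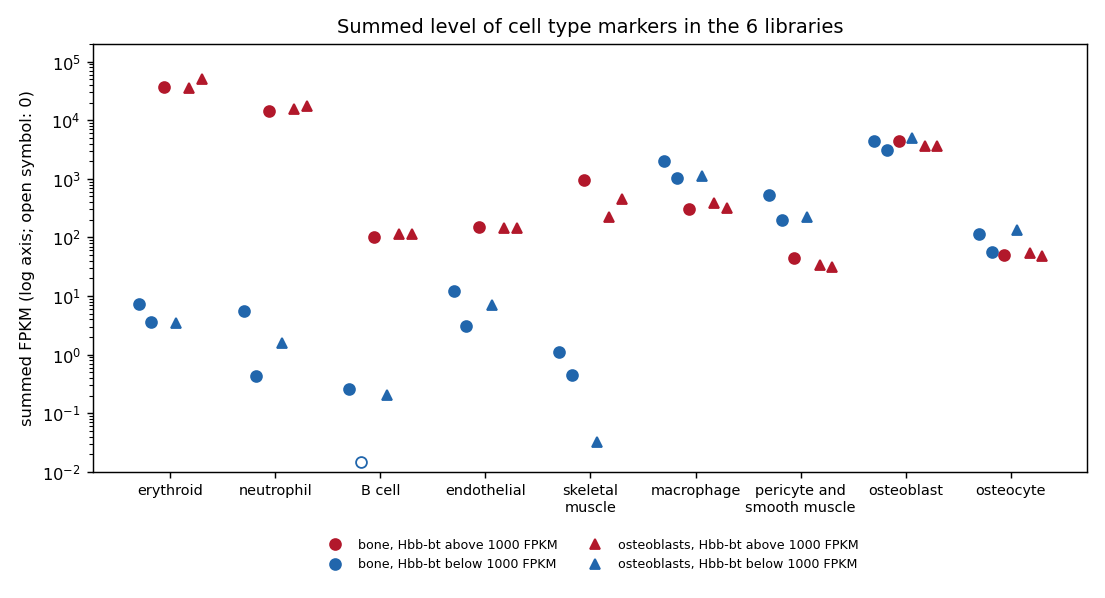
Summed FPKM (vertical log axis) of 9 lists of cell type markers in the 3 libraries labelled bone (circles) and the 3 labelled osteoblasts (triangles), with red for the 3 libraries whose *Hbb-bt* was above 1000 FPKM and blue for the other 3. The erythroid sum holds *Hbb-bt* itself, which defined the colours. Endothelial sums sit at 143 to 149 FPKM in red and at 12.1 FPKM or below in blue, and macrophage sums lie in the opposite order.

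Promoter sequences are shown for the Jagged ligands, of which *Jag1* was lower and *Jag2* higher in the hemoglobin-high libraries, and for *Notch4*, the receptor with the widest range. Each is the RefSeq window of GRCm38.p6 from 250 bases before to 50 bases after the gene start, 5′ to 3′ on the strand of the gene. Capitals mark every match, on either strand, to GGGCGG (a GC box) or AGGAAG (the core of many ETS factor sites), and overlapping matches run together. The *Jag1* window is chr2:137116471-137116770 on the minus strand, that of *Jag2* chr12:112929446-112929745 on the minus strand, and that of *Notch4* chr17:34564045-34564344 on the plus strand.
Jag1: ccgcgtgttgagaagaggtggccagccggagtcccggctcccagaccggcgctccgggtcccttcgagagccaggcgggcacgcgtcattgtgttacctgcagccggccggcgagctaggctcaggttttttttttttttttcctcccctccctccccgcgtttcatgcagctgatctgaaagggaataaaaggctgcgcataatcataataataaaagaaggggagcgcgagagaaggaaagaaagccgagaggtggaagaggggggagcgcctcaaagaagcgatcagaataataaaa
Jag2: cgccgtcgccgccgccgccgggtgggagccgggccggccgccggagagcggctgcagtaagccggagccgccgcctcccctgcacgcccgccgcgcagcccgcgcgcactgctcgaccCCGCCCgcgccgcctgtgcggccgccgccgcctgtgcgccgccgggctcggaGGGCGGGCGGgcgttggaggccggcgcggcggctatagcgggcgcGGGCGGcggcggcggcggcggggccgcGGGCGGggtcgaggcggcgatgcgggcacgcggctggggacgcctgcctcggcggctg
Notch4: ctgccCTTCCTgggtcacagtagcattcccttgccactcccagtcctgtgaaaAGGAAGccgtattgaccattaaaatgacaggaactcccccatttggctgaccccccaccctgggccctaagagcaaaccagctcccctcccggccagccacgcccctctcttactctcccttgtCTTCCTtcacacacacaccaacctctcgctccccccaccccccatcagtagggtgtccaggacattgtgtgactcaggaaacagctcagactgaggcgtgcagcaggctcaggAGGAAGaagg

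The *Jag1* window held neither motif, the *Jag2* window held 5 GC boxes, of which a pair overlap, and the *Notch4* window held 4 ETS cores. Over the 32851 windows of the RefSeq table, 35.7% held GGGCGG and 35.4% held AGGAAG on either strand. The table has 9 windows for 8 members, with none for *Hes1* or *Hey1*. Among these 9, GGGCGG was found in 5 (*Notch1*, *Notch2*, *Notch3*, *Jag2* and *Dll4*) and AGGAAG in 2 (*Notch4* and 1 of the 2 *Dll1* windows). TGGGAA, the core bound by RBPJ, was in none of the 9, against 25.6% of all windows. The windows differed in base composition too, from 86.0% G and C with 63 CG dinucleotides in *Jag2* to 58.3% with 5 in *Notch4* and 55.7% with 22 in *Jag1*, beside medians of 52.7% and 7 over the table.

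Among the named receptors, which leave out *Notch2*, *Notch1* was the highest by FPKM in each of the 6 libraries, though not by coverage. It is a receptor of many tissues and the one that commits blood progenitors to the T lineage. Its values were 16.7, 8.54 and 27.5 FPKM in bone replicates 1 to 3 and 11.8, 23.3 and 26.2 FPKM in osteoblasts replicates 1 to 3. By FPKM the hemoglobin-high libraries were the highest 3 (23.3 to 27.5 FPKM), and the nearest other library was bone replicate 1, 1.40-fold below the lowest of them. In TPM, which scales each library to the same total, the sets overlapped. There bone replicate 1 was at 19.5 and osteoblasts replicate 2 at 19.2. By label the ranges overlapped, at 17.6 ± 9.5 FPKM (SD, n = 3) for bone and 20.5 ± 7.6 FPKM (SD, n = 3) for osteoblasts.

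*Notch3*, the receptor of vascular smooth muscle and pericytes, did not follow hemoglobin. It was at 9.07, 2.26 and 7.76 FPKM in bone replicates 1 to 3 and at 8.66, 5.94 and 5.74 FPKM in osteoblasts replicates 1 to 3. Bone replicate 2, a hemoglobin-low library with most of its FPKM on unnamed features, was lowest, and the highest 2 values came from the other hemoglobin-low libraries. Scaling each library to its 75th percentile brought bone replicate 2 to 3.63 against 5.03 to 10.9 in the other 5, and it was still the lowest.

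*Notch4*, known mainly from endothelial cells, had the widest range of the receptors. It was at 0.672, 0.0881 and 3.21 FPKM in bone replicates 1 to 3 and at 0.206, 2.80 and 2.66 FPKM in osteoblasts replicates 1 to 3. By FPKM its highest value was 36.5 times its lowest, and the lowest of the hemoglobin-high libraries was 3.95 times the highest of the others. The gap was narrower by coverage, put on the FPKM scale as described below, at 0.789 against 0.346. The values of bone replicate 2 and osteoblasts replicate 1 lay under the floor of a 1 kb transcript. All 8 endothelial markers parted the libraries the same way, as did all named erythroid, neutrophil, B cell and skeletal muscle markers. So did 38.4% of the genes with a mean of at least 1 FPKM. The part of any cell type in the *Notch4* value was not tested. *Notch4* and *Jag2* reached a mean of 1 FPKM over the 6 libraries only through the hemoglobin-high ones, since both were under 1 FPKM in the other 3.

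*Notch2* has no feature under its own name. An unnamed plus-strand feature, chr3:97978932-98150361 in GRCm38, begins 34606 bases before the RefSeq start of *Notch2* (98013538 to 98150367) and runs to its end, and it also covers the lncRNA *Gm40103*. It measured 37.2, 18.9 and 36.9 FPKM in bone replicates 1 to 3 and 27.5, 30.6 and 37.3 FPKM in osteoblasts replicates 1 to 3. How much of this is *Notch2* cannot be read from the table, so the feature was left out of every count and share of receptors.

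By summed FPKM, though not by coverage, *Jag1* and *Jag2* changed places between the libraries. *Jag1*, a Jagged ligand of stromal and vascular cells, was at 11.0, 4.34 and 2.63 FPKM in bone replicates 1 to 3 and at 10.2, 2.06 and 2.42 FPKM in osteoblasts replicates 1 to 3. The 3 hemoglobin-high libraries (2.06 to 2.63 FPKM) were all below the others, the nearest being bone replicate 2, 1.65-fold above the highest of them. At the 75th percentile scale bone replicate 2 stood at 6.97 against at most 2.44 in the hemoglobin-high libraries.

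*Jag2*, the other Jagged ligand, was low where *Jag1* was high. It was at 0.357, 0.271 and 4.09 FPKM in bone replicates 1 to 3 and at 0.329, 4.28 and 2.81 FPKM in osteoblasts replicates 1 to 3. By FPKM the lowest hemoglobin-high library stood 7.87-fold above the highest of the others. The gap was narrower by coverage, put on the FPKM scale as described below, at 0.869 against 0.221. The ratio of *Jag1* to *Jag2*, which no scaling of a library can alter, was 30.9, 16.0 and 0.642 in bone replicates 1 to 3 and 31.0, 0.481 and 0.862 in osteoblasts replicates 1 to 3.

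Both Delta-like ligands lay at 0.282 FPKM or less in the hemoglobin-low libraries. Under the floor of a 1 kb transcript lay *Dll4* in each of these libraries and *Dll1* in bone replicates 1 and 2. *Dll1*, a ligand of marginal zone B cell and muscle stem cell fate, was at 0.169, 0.124 and 1.71 FPKM in bone replicates 1 to 3 and at 0.282, 0.887 and 1.51 FPKM in osteoblasts replicates 1 to 3. *Dll4*, the ligand of endothelial tip cells, was at 0.138 FPKM, listed at 0 and at 1.69 FPKM in bone replicates 1 to 3 and at 0.188, 1.14 and 1.89 FPKM in osteoblasts replicates 1 to 3. For both genes each hemoglobin-high library was above each other library, and no fold is given for *Dll4* against the library listed at 0. Their means over the 6 libraries were 0.780 and 0.840 FPKM, under the minimum of 1 used for the test across genes.

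**Figure D2:**
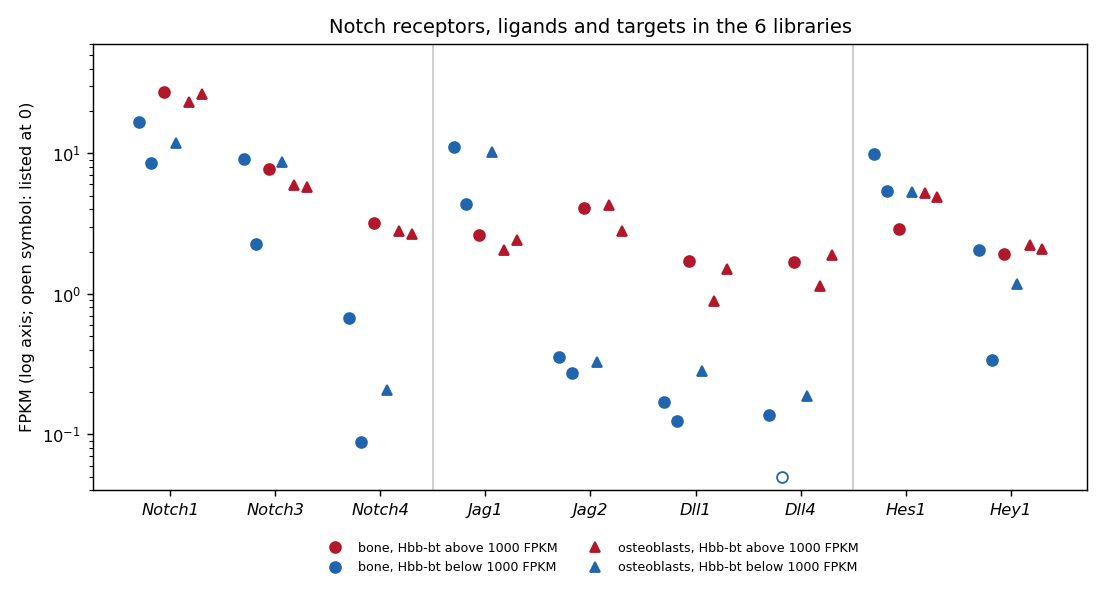
FPKM (vertical log axis) of the 9 named members in each of the 6 libraries, with circles for bone, triangles for osteoblasts, red for *Hbb-bt* above 1000 FPKM and blue for the rest, and an open symbol for the library in which *Dll4* was listed at 0. *Notch1*, *Notch4*, *Jag2*, *Dll1* and *Dll4* have all red symbols above all blue ones, and *Jag1* has them below.

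Within a library the ligands could be set side by side. *Jag1* made up 94.3%, 91.6% and 92.7% of the summed FPKM of the 4 ligands in bone replicates 1 and 2 and osteoblasts replicate 1. In bone replicate 3 and osteoblasts replicates 2 and 3 it made up 26.0%, 24.6% and 28.1%. There *Jag2* took 40.4%, 51.2% and 32.6% and was the highest of the 4 by FPKM, while *Dll1* took 10.6 to 17.5% and *Dll4* 13.6 to 21.9%. In the hemoglobin-low libraries *Jag2* took 5.73% or less. This rank turned with how the locus was summed, since by coverage *Jag2* took 17.4%, 20.5% and 16.5% in bone replicate 3 and osteoblasts replicates 2 and 3 and ranked under *Jag1* and *Dll4*. Receptor shares moved less. *Notch1* held 57.1 to 78.4% of the summed FPKM of the 3 named receptors, *Notch3* 16.6 to 41.9%, and *Notch4* 7.68 to 8.72% in the hemoglobin-high libraries against 0.809 to 2.54% in the others. The counting error of these shares is unknown, since the tables hold no counts.

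**Figure D3:**
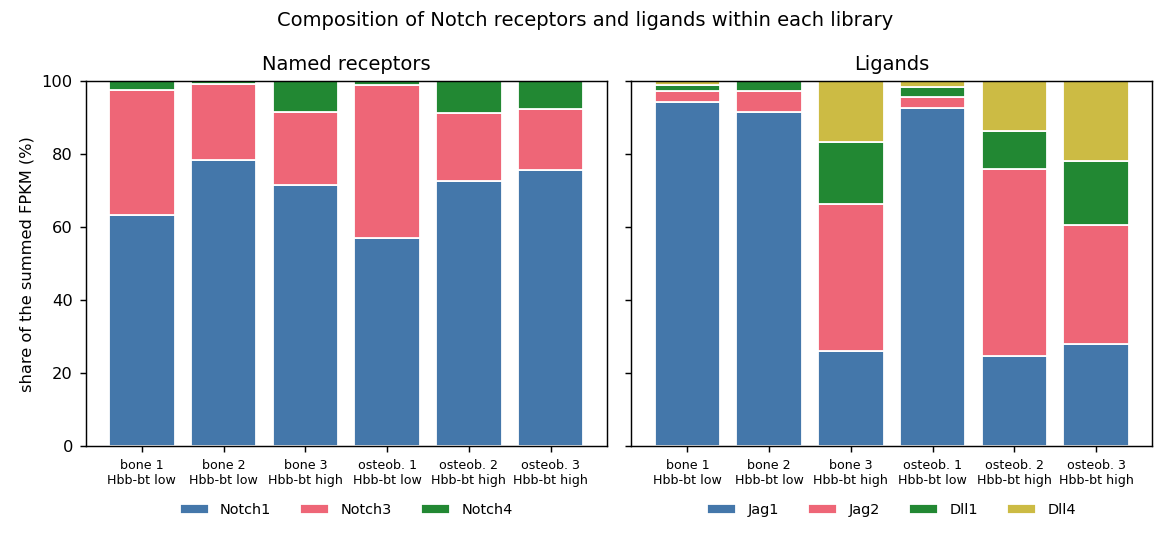
Stacked bars of the share (%) of each gene in the summed FPKM of the 3 named receptors (left) and the 4 ligands (right) within each library, labelled by whether *Hbb-bt* was above (high) or below (low) 1000 FPKM. *Jag1* fills 91.6 to 94.3% of the ligand bar in the hemoglobin-low libraries and 24.6 to 28.1% in the hemoglobin-high ones.

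The target genes did not move as a pair. *Hes1*, a repressor induced directly by the receptor's intracellular domain, was at 9.88, 5.42 and 2.92 FPKM in bone replicates 1 to 3 and at 5.30, 5.23 and 4.90 FPKM in osteoblasts replicates 1 to 3. The hemoglobin-high libraries were the lowest 3, but osteoblasts replicate 2 lay only 1.01-fold below osteoblasts replicate 1. In TPM the sets overlapped, with bone replicate 2 at 4.293 and osteoblasts replicate 2 at 4.295. By FPKM the 3 libraries labelled osteoblasts were close together (5.14 ± 0.22 FPKM, SD, n = 3). The 3 labelled bone were wide apart (6.07 ± 3.53 FPKM, SD, n = 3). At the 75th percentile scale the osteoblasts libraries lay further apart, at 6.64, 4.63 and 4.29 in replicates 1 to 3.

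*Hey1*, a HEY family repressor, was at 2.06, 0.338 and 1.93 FPKM in bone replicates 1 to 3 and at 1.17, 2.21 and 2.10 FPKM in osteoblasts replicates 1 to 3. Bone replicate 2 was again the lowest and the sets of libraries overlapped. The ratio of *Hes1* to *Hey1* within a library was 4.81, 16.0 and 1.51 in bone replicates 1 to 3 and 4.54, 2.37 and 2.33 in osteoblasts replicates 1 to 3, so it was lower in each hemoglobin-high library.

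Many genes parted the libraries in the same way as the members. Of the 9 named members, 5 were higher in every hemoglobin-high library (*Notch1*, *Notch4*, *Jag2*, *Dll1* and *Dll4*), or 55.6%, beside 32.4% of the 27562 genes with an FPKM above 0 in some library. A further 2 (*Hes1* and *Jag1*), or 22.2%, were lower in every one, beside 9.32%. These counts are by FPKM. By TPM *Notch1* and *Hes1* overlapped, and the shares over all genes were not taken by TPM. Among the 7 members with a mean of at least 1 FPKM the counts were 3 above and 2 below, and over the 12112 genes with such a mean the shares were 38.4% above and 16.9% below. Nothing is read from the 3, since *Jag2* and *Notch4* reached that mean only through the hemoglobin-high libraries and so had to be higher there. With libraries scaled to the 75th percentile, which moved the median gene by -0.26 to 0.56 on the log2 scale, *Hey1* joined the upward set (4 of 7), and the shares over all genes were 37.1% above and 32.1% below. No test was run of these shares against each other.

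The order of the members by level depends on how a locus is summed. StringTie gives a locus the summed FPKM of its transcripts and, separately, the mean coverage of its bases. Dividing coverage by the library's own ratio of coverage to FPKM puts both on one scale, where a locus with a single transcript gives equal values. *Notch3* was equal in all 6 libraries (a quotient of 1.00), and *Jag1* was within 1.05 to 1.24. For *Notch1* the summed FPKM was 3.68 to 4.98 times the coverage value, for *Jag2* 1.61 to 4.44 times and for *Notch4* 1.24 to 3.55 times. In these 3 genes the quotient was larger in each hemoglobin-high library, so summing widened the gap between the sets. It was 4.69 to 4.98 against 3.68 to 3.96 for *Notch1* and 3.24 to 4.44 against 1.61 to 2.76 for *Jag2*. For *Notch4* it was 2.33 to 3.55 against 1.24 to 1.94. The *Notch1* feature, chr2:26457903-26516663 in GRCm38, runs past the 5′ end of RefSeq *Notch1* (26457902 to 26503822, minus strand) and over the lncRNA *Gm35978*.

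By coverage, *Notch1* was at 4.55, 2.15 and 5.53 in bone replicates 1 to 3 and at 3.20, 4.98 and 5.33 in osteoblasts replicates 1 to 3, under *Notch3* in each library. The ratio of *Notch1* to *Notch3* was 1.36 to 4.57 by FPKM and 0.369 to 0.954 by coverage. The ratio of *Jag1* to *Jag2* kept its order of libraries, with 35.4 to 62.1 in the hemoglobin-low and 2.03 to 2.65 in the hemoglobin-high libraries, but *Jag1* was then the highest ligand in all 6, at 94.6 to 95.4% of the ligand sum in the first set and 41.2 to 43.8% in the second. Each of the 7 members that stood apart by FPKM did so by coverage in the same direction. By TPM, *Notch1* and *Hes1* did not stand apart. By mean FPKM over the 6 libraries the members ran *Notch1* (19.0), *Notch3* (6.57), *Hes1* (5.61), *Jag1* (5.45), *Jag2* (2.02), *Hey1* (1.63), *Notch4* (1.61), *Dll4* (0.840) and *Dll1* (0.780), and the ranges of all neighbours in this order overlapped. This mean pools libraries whose order differs, since *Jag1* was above *Jag2* by FPKM in the 3 hemoglobin-low libraries and below it in the other 3.

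**Figure D4:**
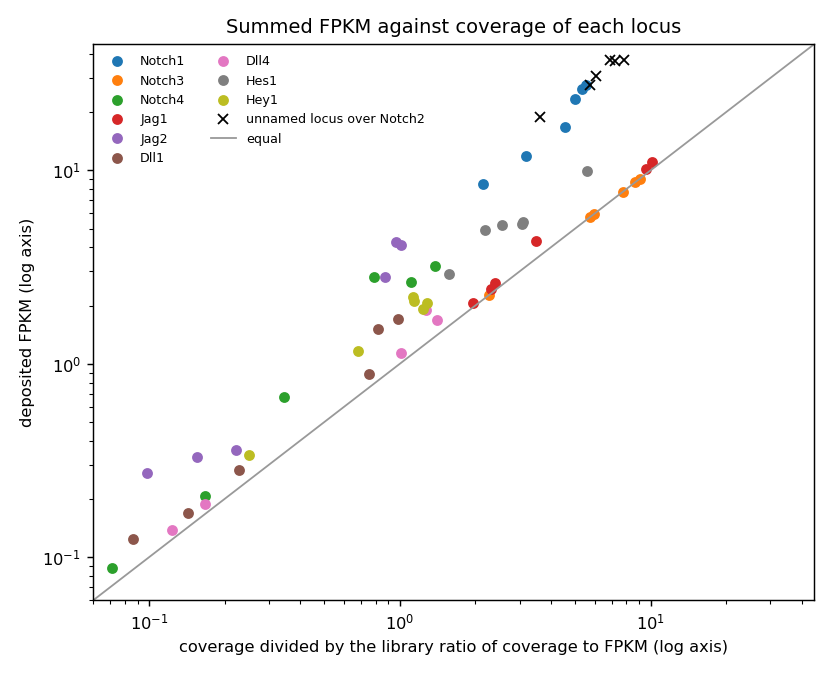
Deposited FPKM (vertical log axis) against coverage divided by the library's ratio of coverage to FPKM (horizontal log axis) for each named member and library, with crosses for the unnamed locus over *Notch2* and a grey line where the values are equal. *Notch3* lies on the line and *Notch1* lies 3.68 to 4.98 times above it.

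Compared by label, no member passed the test. limma, run on log2(FPKM + 1) over the 12112 genes, called 0 genes between osteoblasts and bone at a Benjamini-Hochberg adjusted p under 0.05 (0% of those tested), with 17 at an unadjusted p under 0.05. None of the 7 members in the fit was called, and none was at an unadjusted p under 0.05. Leaving out osteoblasts replicate 1 raised the calls over all genes to 360 and leaving out bone replicate 3 raised them to 3. Members made up 0 of the calls in both runs. These are the only hemoglobin-low library labelled osteoblasts and the only hemoglobin-high library labelled bone. Without either, label and hemoglobin partly coincide and cannot be told apart. On the log2 scale the differences, osteoblasts minus bone, ran from -0.33 (*Jag1*, limma standard error 0.64) to 0.54 (*Jag2*, standard error 0.71), each with a limma adjusted p of 0.999. Their median was 0.27, beside 0.12 over all genes tested. Exact two-sided permutation tests of the 9 members gave p from 0.5 to 0.9, in a design of 3 against 3 that cannot go below 0.1. For *Dll1* the difference was 0.26 (exact permutation p = 0.6) and for *Dll4* it was 0.42 (exact permutation p = 0.5). No member had all osteoblasts values above or below all bone values, which held for 0.479% and 0.438% of the genes tested. Each label held both hemoglobin-high and hemoglobin-low libraries, and the spread within a label was 1.13 on the log2 scale for *Jag2* in bone and 1.04 in osteoblasts (SD, n = 3).

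The other genes of the pathway came from a list of 46, of which 42 carried a name and 32 had a mean of at least 1 FPKM. *Numbl*, *Fbxw7* and *Aph1c* were among those with no named feature. limma called 0 of the 32 between the labels, with 0 at an unadjusted p under 0.05. Of these 32, 10 were higher in every hemoglobin-high library (31.2%, beside 38.4% of all genes) and 5 were lower (15.6%, beside 16.9%). After scaling to the 75th percentile the counts were 7 higher (21.9%, beside 37.1%) and 13 lower (40.6%, beside 32.1%), so the split of this list turned with the scaling. *Mfng* and *Neurl1b*, counted as higher, were under 1 FPKM in each hemoglobin-low library and reached the mean of 1 only through the others, so the filter itself favoured that direction.

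The glycosyltransferases, which add the sugars that tune ligand choice, include the Fringe enzymes *Lfng*, *Mfng* and *Rfng*. *Mfng* was at 0.309, 0.237 and 9.54 FPKM in bone replicates 1 to 3 and at 0.197, 9.90 and 10.1 FPKM in osteoblasts replicates 1 to 3. *Lfng* was the most abundant of the class (13.5 to 34.5 FPKM) and overlapped by FPKM, though it was lower in the hemoglobin-high libraries at the 75th percentile scale. *Pofut1*, which adds O-fucose, was higher in the hemoglobin-high libraries (12.9 to 14.1 against 6.06 to 12.3 FPKM) but overlapped by coverage, and *Poglut1*, which adds O-glucose, was lower (3.94 to 6.4 against 8.98 to 15.8 FPKM).

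The proteases that cut the receptor were present throughout. *Furin*, which processes the precursor, was at 17.5 to 32.0 FPKM and *Ncstn*, a gamma-secretase subunit, at 14.8 to 30.3 FPKM, both overlapping by FPKM and lower in the hemoglobin-high libraries at the 75th percentile scale. *Adam17*, a metalloprotease that sheds the ectodomain, was lower in the hemoglobin-high libraries (4.12 to 10.4 against 12.7 to 19.6 FPKM), as was the gamma-secretase subunit *Aph1b* (2.06 to 3.61 against 4.22 to 6.18 FPKM). The subunit *Psenen* was higher (9.77 to 15.4 against 6.17 to 9.24 FPKM) but overlapped at the 75th percentile scale.

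Of the nuclear factors, *Rbpj*, the DNA-binding partner of the receptor, was at 20.2, 10.4 and 3.87 FPKM in bone replicates 1 to 3 and at 14.0, 8.25 and 8.60 FPKM in osteoblasts replicates 1 to 3, lower in each hemoglobin-high library. The Mastermind coactivators parted ways, with *Maml2* lower there (0.894 to 1.49 against 2.96 to 5.91 FPKM) and *Maml1* (8.01 to 9.61 against 2.97 to 7.23 FPKM) and *Maml3* (2.05 to 4.18 against 1.34 to 2.04 FPKM) higher, though both overlapped at the 75th percentile scale and *Maml3* also by coverage. The acetyltransferase *Ep300* was higher as well (17.7 to 20.0 against 7.48 to 15.4 FPKM) but overlapped by coverage, and *Snw1*, a splicing and Notch cofactor, overlapped at 9.35 to 24.6 FPKM. *Rbpjl* was lower there too, but it stayed at 0.0977 FPKM or less, under the floor given above for a 1 kb transcript.

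Endocytic and ubiquitin regulators were led by *Itch* (9.75 to 24.3 FPKM) and *Numb* (9.88 to 19.5 FPKM), both inhibitors of the receptor, which overlapped by FPKM and were lower in the hemoglobin-high libraries at the 75th percentile scale. *Neurl1b*, a ubiquitin ligase of the Neuralized family that acts on ligands, was at 0.657, 0.240 and 5.44 FPKM in bone replicates 1 to 3 and at 0.483, 5.97 and 4.06 FPKM in osteoblasts replicates 1 to 3. The Deltex genes *Dtx1* (1.13 to 1.61 against 0.0664 to 0.161 FPKM), *Dtx3* (8.93 to 12.7 against 4.43 to 7.10 FPKM) and *Dtx4* (6.48 to 7.10 against 1.94 to 4.94 FPKM) were higher in the hemoglobin-high libraries too.

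Among other targets, *Nrarp*, a feedback inhibitor of the pathway, was at 0.0695 FPKM, listed at 0 and at 1.55 FPKM in bone replicates 1 to 3 and at 0.0286, 1.23 and 1.69 FPKM in osteoblasts replicates 1 to 3. *Heyl* was at 1.42 to 2.01 FPKM in the hemoglobin-high libraries against 0.0377 to 1.36 FPKM in the others. *Hes5* was at 0.307 to 0.788 FPKM against a listed 0 in the other 3. These 3 targets were thus higher in the set of libraries in which *Hes1* was lower by FPKM. *Hes1* parted the sets by only 1.01-fold, however, and overlapped by TPM. The targets *Hey2* and *Hes7* overlapped, at 0.156 FPKM or less. Of all genes with an FPKM above 0 in some library, 32.4% were higher in every hemoglobin-high library. The ligands *Dlk2* and *Dner* were lower in the hemoglobin-high libraries and *Dlk1* higher, none of them above 0.766 FPKM in any library. *Dlk1* was under the floor of a 1 kb transcript in every library, as were *Dlk2* and *Dner* in the hemoglobin-high ones and in osteoblasts replicate 1. *Dner* was under it in bone replicate 2 as well. *Dll3* was listed at 0 in all 6.

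**Figure D5:**
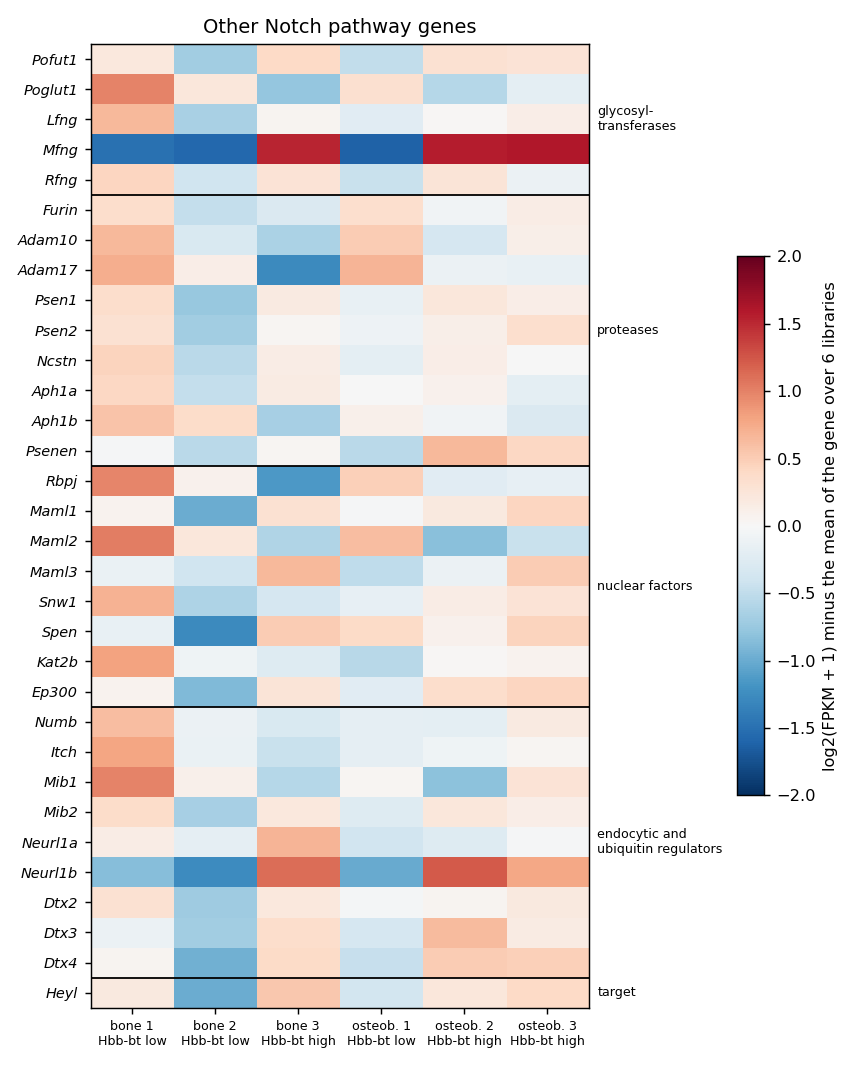
Colour shows log2(FPKM + 1) minus the mean of the gene over the 6 libraries for the 32 other pathway genes with a mean of at least 1 FPKM (rows, grouped by role), by library (columns, each marked by whether *Hbb-bt* was above 1000 FPKM). *Mfng* and *Neurl1b* are red in the 3 hemoglobin-high columns and blue in the others, and *Rbpj* and *Adam17* are lower there.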

How the data were processed

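RNA-seq libraries (TruSeq RNA v2, a kit that does not keep strand) were aligned by the authors to GRCm38 with HISAT2 2.0.5, and StringTie 1.3.3 assembled loci. The tool versions come from the submitters' processing notes. The authors deposited per library the coverage (mean reads per base), the FPKM and the TPM of each locus, with no counts. Features were summed by gene name. The members, lists and tests were chosen with earlier results of these data known. The depth of a library is its most frequent ratio of coverage to FPKM. That ratio is matched within 1% by 33.3 to 71.8% of the loci with a coverage above 1, and by fewest in bone replicate 2 and osteoblasts replicate 1. Genes whose FPKM averaged 1 or more were tested with limma 3.58.1 (trend) in R 4.3.3 on log2(FPKM + 1), with Benjamini-Hochberg adjustment over all genes. Single genes had exact permutation tests. P-values measure the spread between these libraries.

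Of the pathway list, the text names the 2 most abundant genes of each class and those whose hemoglobin-high and hemoglobin-low libraries do not overlap. Numbers shared between labels mark no common mouse in the labels. The features of *Dll4*, *Hey1*, *Jag2*, *Notch1* and *Notch3* overlap other RefSeq genes, whose reads cannot be told apart without strand. Alternatives were a pseudocount of 0.1, no filter, TPM, 75th percentile scaling, a replicate block, leaving out each library and, added after seeing the data, coverage. Python 3.11.15 with pandas 2.3.3 was used for the tables and matplotlib 3.10.9 for the plots.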

Additional observations from a re-analysis of the deposited data

How the results depend on the processing

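Over the 12112 genes limma called 0 between the labels, and 0 to 360 when 1 library was left out. The 360 came without osteoblasts replicate 1, the only hemoglobin-low library of its label. With the replicate number as a block it called 49 genes, 46 higher and 3 lower in osteoblasts, and 0 of the 7 members. The deviations of same-numbered libraries correlated at 0.84, -0.75 and 0.83, and 3 of the 6 libraries (both replicates 1 and osteoblasts replicate 3) correlated best with their own number, so the numbers were not taken as pairs. Members and other pathway genes had 0 calls under each alternative run. Of 81 alternative values of the 7 members in the fit, 74 kept their direction. The 7 that reversed came from leaving out 1 library, with ranges on the log2 scale of -0.14 to 0.65 for *Notch1*, -0.29 to 0.52 for *Notch3*, -0.05 to 0.92 for *Notch4*, -0.93 to 0.15 for *Jag1*, -0.44 to 0.29 for *Hes1* and -0.10 to 0.49 for *Hey1*. Bone replicate 2 decided the sign of *Notch1* (-0.14 without it), *Notch3* (-0.29), *Notch4* (-0.0525) and *Hey1* (-0.10), and bone replicate 1 that of *Jag1* (0.15) and *Hes1* (0.29). Without osteoblasts replicate 2 *Jag1* was at 0.0082. By coverage *Jag2*, *Notch4* and *Hey1* fell under the minimum of 1 and have no value. The tables hold no counts, so the error of a single low FPKM is unknown.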
